A study of Homo sapiens with 12 samples.

Results

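A549 is a human lung adenocarcinoma line, and this account covers its transcriptome after hypoxia against its transcriptome in normoxia. The members were chosen by their labels: the 4 A549 libraries, 2 from hypoxia and 2 from normoxia, out of 12 poly(A)+ RNA-seq libraries in the series. The other 8 libraries came from H460, a lung line, and RKO, a colon line, under the same 2 conditions, with 2 libraries in each of the 6 groups. Both A549 groups grew in DMEM with fetal bovine serum and an antibiotic-antimycotic mix, were plated on the eve of treatment, and carry no gene edit, transgene or drug in the labels. Hypoxia meant 24 h in a humidified atmosphere of 1% O2 and 5% CO2, and normoxia meant a humidified atmosphere with 5% CO2 for which the labels give no oxygen percentage. The study describes its RNA-seq libraries as independent biological duplicates. A549 is 1 established line, so the replicates carry variation between cultures and libraries and none between donors.

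The line expressed epithelial markers and carried little of the alveolar program that a lung origin could bring. The 6 epithelial markers (EPCAM, KRT8, KRT18, KRT19, CDH1 and CLDN7) all passed 0.5 CPM in at least 2 of the 4 libraries. CPM is a gene's read count relative to its library's total count, here without further scaling. The markers summed to 2747 to 3278 CPM in normoxia and 2443 to 2507 CPM in hypoxia. That sum came mainly from KRT8 (1354 to 1857 CPM) and KRT18 (921 to 1306 CPM), while KRT19 stood at 0.470 to 0.814 CPM. Of 9 alveolar type II and lung markers, 3 (NAPSA, ABCA3 and LPCAT1) met the same 0.5 CPM criterion. The surfactant gene SFTPA1 had no count in any library and NKX2-1, the lung lineage factor, had 1 to 8 counts. The lung marker sum, 213 and 315 CPM in normoxia and 490.5 and 529 CPM in hypoxia, came mainly from LPCAT1, a phospholipid-remodelling enzyme. Of 5 endothelial markers, 0 passed 0.5 CPM. Of 6 leukocyte markers, 3 (CD14, CD68 and ITGAM) passed it, and the list summed to 125 to 172 CPM in normoxia and 142 to 145 CPM in hypoxia, mainly from the lysosomal protein CD68 at 4455 to 6335 counts, while the T cell gene CD3E was at 0 in all 4 libraries. Of 5 colon markers, LGALS4 passed at 23 to 61 counts and the factor CDX1 was at 0.

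Cells sense oxygen through the prolyl hydroxylases EGLN1, EGLN2 and EGLN3, which use oxygen to mark the alpha subunits HIF1A and EPAS1 (HIF2A) for capture by VHL and destruction. When oxygen is scarce the alpha subunits persist, pair with ARNT and bind hypoxia response elements whose core reads ACGTG or GCGTG. Known targets raise glucose uptake and glycolysis, divert pyruvate from mitochondria, buffer acid, remodel collagen and recruit blood vessels. Poly(A)+ RNA-seq reads messenger RNA level, so it does not see the HIF proteins themselves.

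Summed counts were 35724285 to 41757584 per library, and 14251 of 25369 genes passed 0.5 CPM in at least 2 of the 4 libraries. From here on CPM is relative to the library total scaled by the trimmed mean of M values (TMM). A gene was called when edgeR's quasi-likelihood test gave a Benjamini-Hochberg adjusted p under 0.1 and the fold change was over 1.5. Hypoxia raised 316 genes (2.22% of those tested) and lowered 65 (0.456%), so 2.67% were called in either direction. At an unadjusted p under 0.05 there were 1389 higher (9.75%) and 974 lower (6.83%) genes. The 2 conditions did not overlap, with both hypoxia libraries above both normoxia libraries, for 3574 genes (25.1%), and the reverse held for 3514 (24.7%). The median log2 fold change over all tested genes was -0.01, and the median standard error (SE) was 0.22. Since RNA was extracted in bulk, a change per cell and a change in how many cells carry a transcript cannot be told apart.

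The number of calls depended on which library was in the fit. Without hypoxia replicate 1, 1156 genes were called higher and 791 lower, against 196 and 72 without hypoxia replicate 2. Without normoxia replicate 1 the counts were 362 and 193, and without normoxia replicate 2 they were 372 and 131. In each of these fits the lone library of a condition is assumed to vary like the pair of the other condition. No called gene changed sign in any of the 4 fits.

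**Figure D1:**
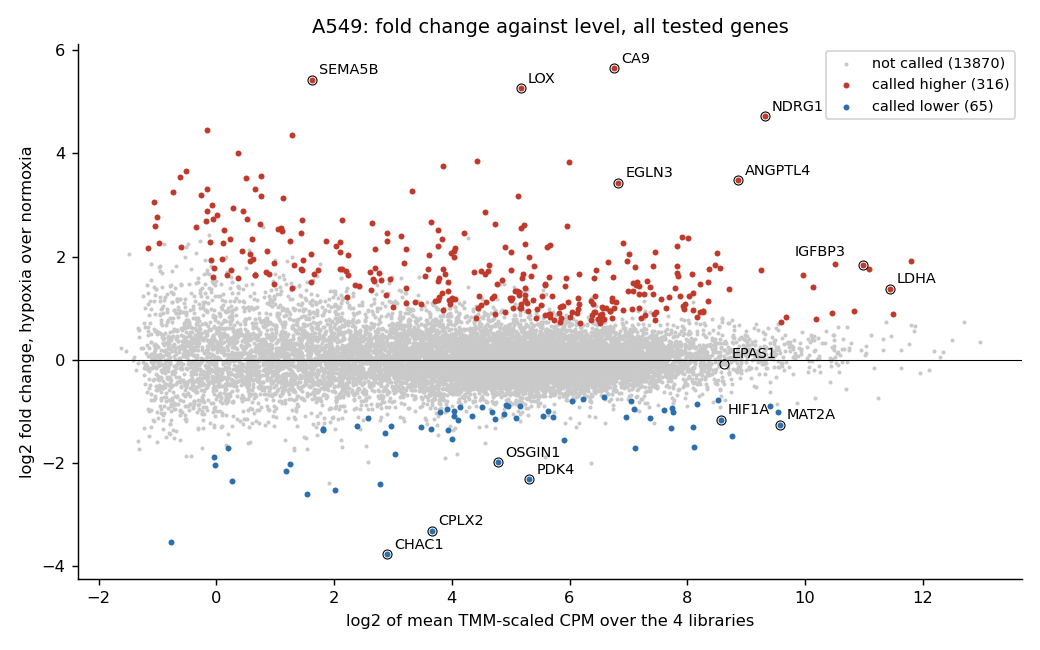
Each point is 1 of the 14251 tested genes in A549, with the log2 of its mean CPM over the 4 libraries on the x axis and the log2 fold change of hypoxia over normoxia on the y axis. The 316 genes called higher (red) reached 5.65 and the 65 called lower (blue) reached -3.77, around a median of -0.01, and open circles mark the labelled genes.

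The highest fold changes belonged to an acid-buffering enzyme, matrix and signalling proteins and a metallothionein. CA9, the tumour-associated carbonic anhydrase of the cell surface, measured 5.89 and 2.58 CPM in normoxia replicates 1 and 2 and 199 and 227 CPM in hypoxia replicates 1 and 2. Both hypoxia libraries stood far above both normoxia libraries, with a log2 fold change of 5.65 ± 0.37 (SE, adjusted p = 0.000876). Without normoxia replicate 1 it was 6.36. The gene spans chr9:35673915-35681154 on the plus strand of hg19. SEMA5B, a semaphorin of axon guidance, was nearly silent in normoxia and measured 0.0489 and 0.225 CPM in normoxia against 3.79 and 8.22 in hypoxia, which gave a log2 fold change of 5.42 ± 0.64 (SE, adjusted p = 0.00603) on 2 and 9 normoxia counts, and 4.71 to 6.85 with 1 library left out. LOX, the lysyl oxidase that crosslinks collagen, measured 1.30 and 2.35 CPM in normoxia against 32.3 and 108 in hypoxia, which gave a log2 fold change of 5.26 ± 0.57 (SE, adjusted p = 0.00467). Hypoxia replicate 2 held 3.35 times the level of replicate 1. NDRG1, a stress-responsive gene widely used as a hypoxia marker, measured 40.4 and 52.7 CPM in normoxia against 689 and 1771 in hypoxia, which gave a log2 fold change of 4.73 ± 0.43 (SE, adjusted p = 0.00441). Without hypoxia replicate 2 the values were 4.14 for LOX and 3.89 for NDRG1, and without hypoxia replicate 1 they were 5.88 and 5.24.

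PPFIA4, a liprin scaffold protein, measured 4.15 and 1.38 CPM in normoxia against 30.6 and 49.9 in hypoxia. MT1X, a metallothionein that binds zinc and copper, measured 6.77 and 9.84 CPM in normoxia against 61.3 and 177 in hypoxia, and reads of this gene family can be shared between close copies. CCDC183, a coiled-coil gene, measured 1.76 and 2.20 CPM in normoxia against 16.9 and 36.9 in hypoxia, and it lies 3021 bases downstream of TMEM141 on the same strand of chromosome 9. ANGPTL4, a secreted inhibitor of lipoprotein lipase, measured 54.3 and 98.1 CPM in normoxia against 417 and 1285 in hypoxia. These 4 genes had log2 fold changes of 3.86, 3.84, 3.76 and 3.48, with adjusted p between 0.00441 and 0.0130. None overlapped between conditions, which their selection required. In 7 of the 8 highest genes the second hypoxia library exceeded the first by at least 1.63 times, CA9 being the exception at 1.14 times. Leaving out hypoxia replicate 2 gave log2 fold changes of 2.88 for MT1X, 3.08 for CCDC183 and 2.45 for ANGPTL4. Leaving out hypoxia replicate 1 gave 4.07 for ANGPTL4, and leaving out normoxia replicate 1 gave 4.87 for PPFIA4.

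The lowest fold changes included a pyruvate dehydrogenase kinase and genes of stress and junction biology. CHAC1, which degrades glutathione and marks the amino acid stress response, measured 2.47 and 25.2 CPM in normoxia against 1.22 and 0.790 in hypoxia. Its low value rested on normoxia replicate 2, which held 10.2 times the level of normoxia replicate 1, and without that library the log2 fold change was -1.28 with an adjusted p of 0.213, against -4.63 without normoxia replicate 1. CPLX2, a complexin of vesicle release, measured 23.3 and 22.5 CPM in normoxia against 3.18 and 1.40 in hypoxia with a log2 fold change of -3.31 ± 0.36 (SE, adjusted p = 0.00467), and -4.03 without hypoxia replicate 1. PDK4, a kinase that switches off pyruvate dehydrogenase, lies at chr7:95212809-95225925 on the minus strand of hg19. It measured 71.0 and 61.4 CPM in normoxia against 14.1 and 12.6 in hypoxia with a log2 fold change of -2.31 ± 0.20 (SE, adjusted p = 0.00441), and the replicates lay close together in both conditions. OSGIN1, an oxidative stress gene of the NRF2 program, measured 45.3 and 43.2 CPM in normoxia against 11.3 and 11.2 in hypoxia with a log2 fold change of -1.98 ± 0.20 (SE, adjusted p = 0.00441).

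CLDN2, a pore-forming claudin of tight junctions, measured 7.48 and 6.38 CPM in normoxia against 1.81 and 0.585 in hypoxia, and CYP4F3, a fatty acid hydroxylase, measured 14.2 and 11.4 CPM in normoxia against 2.96 and 4.30 in hypoxia. CLDN2 had a log2 fold change of -2.51 ± 0.47 (SE, adjusted p = 0.0409), and -3.57 without hypoxia replicate 1, and CYP4F3 had a log2 fold change of -1.83 ± 0.29 (SE, adjusted p = 0.0214). The remaining members of the lowest 8 were POM121L10P at -2.60 and POM121L9P at -2.41, pseudogenes of one family whose reads can be shared between copies.

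**Figure D2:**
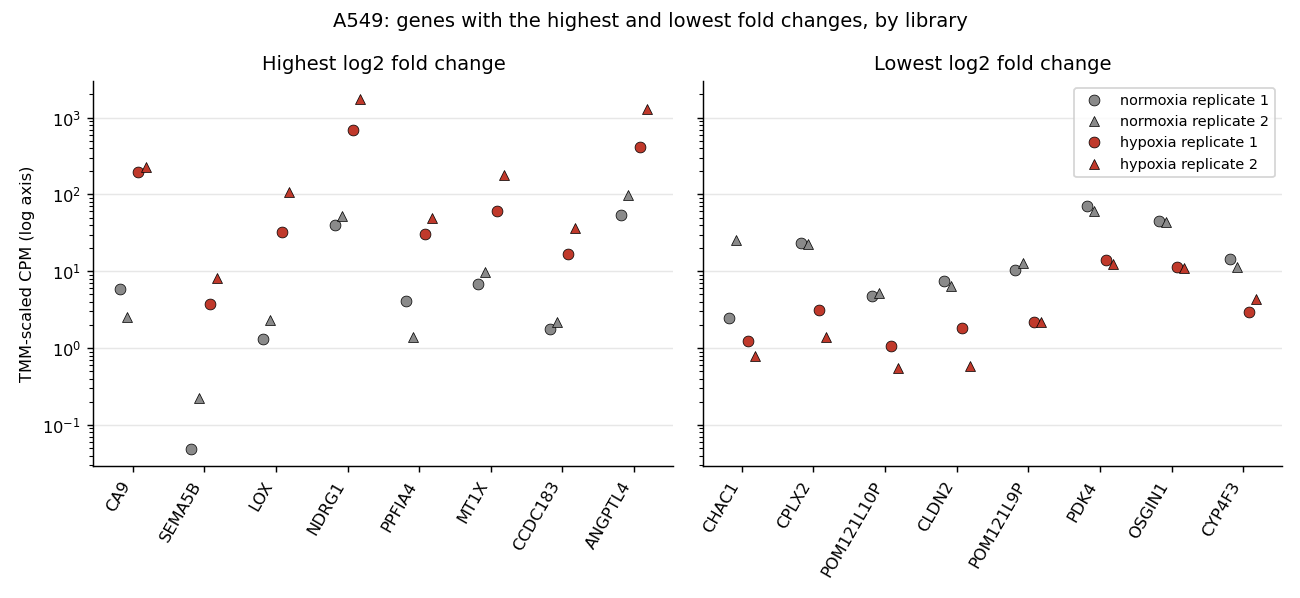
Points give the TMM-scaled CPM (log axis) of the 8 most raised and the 8 most lowered named genes in each of the 4 A549 libraries, with normoxia grey, hypoxia red, replicate 1 as circles and replicate 2 as triangles. Hypoxia and normoxia are separated for all 16 genes because their selection required it, and the red triangles sit above the red circles for all 8 rising genes.

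The called genes moved further in hypoxia replicate 2 than in hypoxia replicate 1. Of the 316 genes called higher, 295 (93.4%) were lower in hypoxia replicate 1 than in replicate 2, where 50.2% of all tested genes were. The median ratio of replicate 2 to replicate 1 was 1.46 over the genes called higher and 1.00 over all tested genes. Against the normoxia mean, the genes called higher had a median ratio of 2.30 in hypoxia replicate 1 and 3.49 in hypoxia replicate 2. Of the 65 called lower, 53 (81.5%) were higher in hypoxia replicate 1, with median ratios to the normoxia mean of 0.483 and 0.380 in the 2 libraries. The normoxia libraries showed no such order, with 143 of the 316 (45.3%) lower in normoxia replicate 1. These shares are descriptions, because the same libraries chose the called genes.

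**Figure D3:**
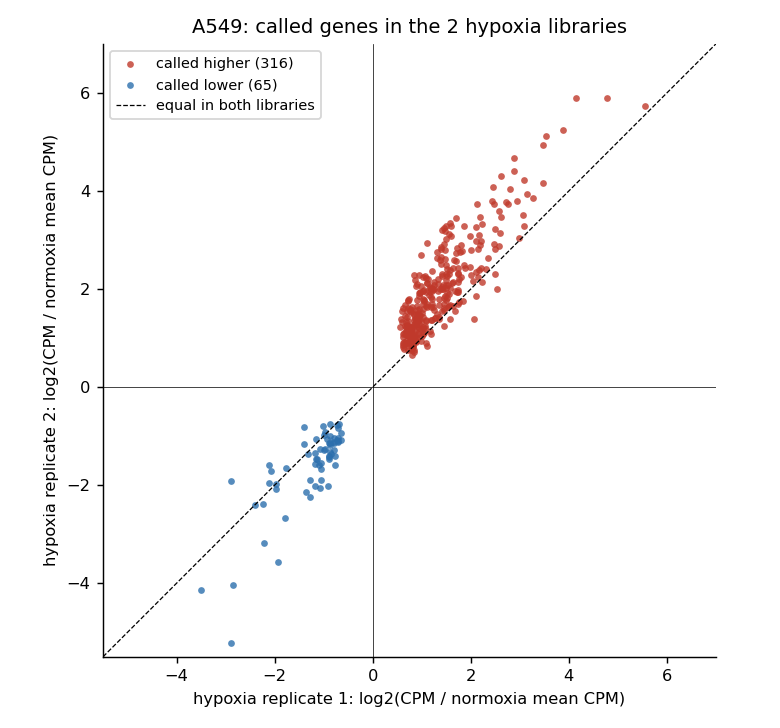
Each point is a called gene, with the log2 ratio of its CPM to the normoxia mean in hypoxia replicate 1 on the x axis and in hypoxia replicate 2 on the y axis, and the dashed line marks equal ratios. Of the 316 genes called higher (red), 295 lie above the line, and of the 65 called lower (blue), 53 lie below it.

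Within the oxygen-sensing pathway, 1 of 12 tested members rose, 1 fell and 10 were not called, with a median log2 fold change of -0.10. Of all tested genes, 2.22% were called higher and 0.456% lower. EGLN3, the prolyl hydroxylase known as a HIF target, measured 26.2 and 12.4 CPM in normoxia replicates 1 and 2 and 148 and 269 CPM in hypoxia replicates 1 and 2. Both hypoxia libraries exceeded both normoxia libraries, with a log2 fold change of 3.43 ± 0.39 (SE, adjusted p = 0.00538), and 4.07 without normoxia replicate 1. HIF1A fell: it measured 475 and 572 CPM in normoxia replicates 1 and 2 and 281 and 189 CPM in hypoxia replicates 1 and 2. The conditions did not overlap and gave a log2 fold change of -1.16 ± 0.23 (SE, adjusted p = 0.0494). The gene spans chr14:62162119-62214977 on the plus strand of hg19. EPAS1, the other alpha subunit, measured 372 and 441 CPM in normoxia against 298 and 473 in hypoxia with a log2 fold change of -0.08 ± 0.23 (SE, adjusted p = 0.900), so its conditions overlapped. ARNT, their shared partner, measured 55.1 and 60.6 CPM in normoxia against 57.5 and 72.6 in hypoxia with a log2 fold change of 0.17 ± 0.19 (SE, adjusted p = 0.702). Per length, the deposited RPKM of HIF1A was 110.3 and 136 RPKM in normoxia and 62.6 and 41.2 RPKM in hypoxia, and that of EPAS1 was 73.4 and 89.0 RPKM in normoxia and 56.6 and 87.6 RPKM in hypoxia. HIF1A messenger thus stood above EPAS1 messenger in both normoxia libraries and in hypoxia replicate 1, and below it in hypoxia replicate 2. The third alpha subunit, HIF3A, had 0 to 2 counts.

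The next genes are shown with the upstream DNA in which a HIF core could lie, because they carry the metabolic part of the response. Promoter windows of 300 bases, 250 before and 50 after the start, came from RefSeq on GRCh38.p14, with the first listed start of each gene. Each window was searched on both strands for ACGTG and GCGTG, and overlapping matches, as in CACGTG, were counted as 1 site. At least 1 match was present in 48.4% of all 35116 windows. The 8 stretches that follow surround the upstream match nearest the start, read on the gene's strand, and capitals mark every match, so that CACGT and CACGC are cores on the opposite strand.
CA9 (chr9:35673875-35673927, plus strand): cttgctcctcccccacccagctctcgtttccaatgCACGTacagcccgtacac
ALDOC (chr17:28576896-28576958, minus strand): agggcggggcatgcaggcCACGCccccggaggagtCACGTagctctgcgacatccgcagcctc
HK2 (chr2:74834044-74834118, plus strand): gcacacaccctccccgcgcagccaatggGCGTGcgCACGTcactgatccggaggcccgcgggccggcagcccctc
ENO2 (chr12:6914427-6914501, plus strand): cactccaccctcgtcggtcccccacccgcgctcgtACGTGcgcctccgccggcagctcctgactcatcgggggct
PGK1 (chrX:78104030-78104104, plus strand): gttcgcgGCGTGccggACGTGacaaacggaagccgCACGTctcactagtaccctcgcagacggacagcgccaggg
CA12 (chr15:63382041-63382096, minus strand): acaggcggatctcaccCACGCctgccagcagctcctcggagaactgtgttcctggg
BNIP3 (chr10:131981988-131982062, minus strand): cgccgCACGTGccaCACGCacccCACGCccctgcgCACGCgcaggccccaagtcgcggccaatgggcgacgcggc
PDK3 (chrX:24465190-24465264, plus strand): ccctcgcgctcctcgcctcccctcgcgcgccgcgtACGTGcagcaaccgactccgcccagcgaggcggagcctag
The nearest core began 18 bases before the start in CA9, 28 in ALDOC and 234 in CA12, with the others between these. BNIP3 held 5 upstream sites, the most of the 8, and HK2 has 2 listed starts, of which the first was used. These are the 8 genes with the highest log2 fold changes among called members of the HIF pathway, glycolysis, mitochondrial and pH lists that had a match upstream of the start. Of 22 such called genes, 20 had a window, 13 held an upstream match, 1 held a match only after the start and 6 held no match in this window. EGLN3, MXI1 and PDK1 were among those 6, which says only that these letters are not in this window. Only 228 of the 316 genes called higher (72.2%) and 45 of the 65 called lower (69.2%) had a window, so a share of matches over the called genes would be void and is not given.

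Of 22 genes of glucose uptake and glycolysis, 13 were called higher and 9 were not called, where 2.22% of all genes were called higher. The median log2 fold change was 0.81 against -0.01 over all genes. The enzymes took 1.92% and 1.63% of all counts in normoxia and 2.91% and 3.10% in hypoxia. The 3 largest log2 fold changes of the list were those of ALDOC, HK2 and ENO2. ALDOC, an aldolase, measured 7.16 and 6.78 CPM in normoxia replicates 1 and 2 and 41.7 and 84.2 CPM in hypoxia replicates 1 and 2. HK2, the inducible hexokinase, measured 4.18 and 3.88 CPM in normoxia against 17.8 and 28.4 in hypoxia. ENO2, an enolase, measured 94.4 and 68.5 CPM in normoxia against 264 and 485 in hypoxia. All 3 were higher in both hypoxia libraries than in either normoxia library, with log2 fold changes of 3.17 ± 0.33, 2.52 ± 0.29 and 2.20 ± 0.30. Without hypoxia replicate 2 that of ALDOC was 2.58.

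Their abundant partners moved less. Per length, ALDOA stood at 436 and 355 RPKM in normoxia and 692 and 747 RPKM in hypoxia and ALDOC at 4.43 and 4.29 RPKM in normoxia and 24.7 and 48.8 RPKM in hypoxia, and ALDOA rose by 0.95 on the log2 scale. ENO1 stood at 748 and 656 RPKM in normoxia and 911 and 828 RPKM in hypoxia and was not called, with a log2 fold change of 0.40 and an adjusted p of 0.307. HK1 was not called either, at 0.57 with an adjusted p of 0.172. PGK1, which makes ATP in the lower part of the pathway, measured 703 and 553 CPM in normoxia against 2084 and 2463 in hypoxia with a log2 fold change of 1.86 ± 0.20 (SE, adjusted p = 0.00467). The glucose transporters SLC2A1 and SLC2A3 rose by 1.78 and 1.67, LDHA, which makes lactate, by 1.38, and the lactate exporter SLC16A3 by 1.28. GAPDH, often used as a reference gene, measured 5419 and 4625 CPM in normoxia against 7637 and 9055 in hypoxia and was not called, with a log2 fold change of 0.73 and an adjusted p of 0.113.

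Of 10 glycogen genes, 3 rose and 7 were not called, where 2.22% of all genes rose. The median log2 fold change of the list was 0.75. GBE1, the branching enzyme, measured 83.0 and 71.1 CPM in normoxia against 185 and 203 in hypoxia with a log2 fold change of 1.33 ± 0.18 (SE, adjusted p = 0.00888). PYGL, the liver-type phosphorylase that releases glucose from glycogen, measured 155 and 157 CPM in normoxia against 265 and 471 in hypoxia with a log2 fold change of 1.24 ± 0.26 (SE, adjusted p = 0.0606). PGM1, which links glycogen to glycolysis, measured 74.9 and 63.2 CPM in normoxia against 114 and 117 in hypoxia with a log2 fold change of 0.74 ± 0.17 (SE, adjusted p = 0.0868). Without hypoxia replicate 2 the calls of PYGL and PGM1 were lost, with adjusted p of 0.133 and 0.210, which left 1 of the 3. PGM1 also lost its call without normoxia replicate 2, with 0.207, and without hypoxia replicate 1 the list held 6 calls.

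Among 13 tested genes of mitochondrial adaptation, 6 rose, 1 fell and 6 were not called, where 2.22% of all genes rose and 0.456% fell. The list median was 0.33. BNIP3 and BNIP3L, receptors that mark mitochondria for autophagy, measured 68.9 and 54.2 CPM in normoxia against 220.5 and 209 in hypoxia and 87.4 and 113 CPM in normoxia against 301 and 406 in hypoxia, with log2 fold changes of 1.80 ± 0.19 and 1.82 ± 0.22. MXI1, which antagonises MYC, measured 5.25 and 6.94 CPM in normoxia against 16.1 and 34.8 in hypoxia with a log2 fold change of 2.06 ± 0.36 (SE, adjusted p = 0.0297), and 1.40 without hypoxia replicate 2. FAM162A, a mitochondrial protein linked to hypoxic cell death, rose by 1.61.

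The pyruvate dehydrogenase kinases went in different directions. PDK1 measured 11.7 and 9.24 CPM in normoxia against 29.7 and 39.7 in hypoxia and PDK3 measured 16.5 and 12.9 CPM in normoxia against 43.3 and 55.2 in hypoxia, and they rose by 1.73 ± 0.24 and 1.74 ± 0.23. PDK2 measured 20.02 and 18.8 CPM in normoxia against 23.6 and 25.4 in hypoxia and was not called, with an adjusted p of 0.445. PDK4 fell, as given above. Per length, PDK4 was the most abundant of the 4 kinases in normoxia, with 19.6 and 17.3 RPKM in normoxia and 3.72 and 3.26 RPKM in hypoxia. In hypoxia it stood below PDK1, with 2.05 and 1.65 RPKM in normoxia and 5.00 and 6.52 RPKM in hypoxia, and below PDK2, with 6.02 and 5.79 RPKM in normoxia and 6.81 and 7.15 RPKM in hypoxia.

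Of 8 genes of acid handling, the 2 surface carbonic anhydrases CA9 and CA12 were called higher and 6 genes were not called. Of all genes, 2.22% were called higher, and the list median was 0.10. CA12, a second carbonic anhydrase at the cell surface, measured 198 and 112 CPM in normoxia against 513 and 597 in hypoxia with a log2 fold change of 1.84 ± 0.26 (SE, adjusted p = 0.0140). Per length, CA12 stood at 50.7 and 29.4 RPKM in normoxia and 126 and 144 RPKM in hypoxia and CA9 at 3.87 and 1.73 RPKM in normoxia and 125 and 139.7 RPKM in hypoxia, so that CA12 was above CA9 in normoxia and the 2 genes lay close together in hypoxia. The other members, bicarbonate and proton transporters among them, lay between -0.20 and 0.23.

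Secreted vascular and hormone factors had the highest median of the lists, 1.62. Of their 13 tested members 7 were called higher, where 2.22% of all genes were. VEGFA, the main growth factor for new vessels, measured 85.8 and 138 CPM in normoxia replicates 1 and 2 and 211 and 479 CPM in hypoxia replicates 1 and 2. The hypoxia libraries exceeded both normoxia libraries, with a log2 fold change of 1.62 ± 0.36 (SE, adjusted p = 0.0783), and hypoxia replicate 2 held 2.27 times the level of replicate 1. The call of VEGFA did not hold with library-size scaling or limma. PDGFB, a platelet-derived growth factor chain, measured 4.77 and 16.1 CPM in normoxia against 27.6 and 95.5 in hypoxia, and FGF11, an intracellular fibroblast growth factor homologue, measured 3.45 and 3.43 CPM in normoxia against 13.9 and 16.7 in hypoxia. PDGFB rose by 2.56 ± 0.62 (adjusted p = 0.0970) and FGF11 by 2.15 ± 0.26 (adjusted p = 0.00603). STC1, a stanniocalcin, and IGFBP3, which binds insulin-like growth factors, rose by 1.90 and 1.84. The vasodilator peptide ADM and the vasoconstrictor EDN1 were not called, at 0.67 and 0.15. DESeq2 did not call PDGFB, whose adjusted p there was 0.182. In the fit without hypoxia replicate 2 the list held 7 calls with a median of 0.91, VEGFA at 0.91 and PDGFB at 1.40, and PDGFB was 3.69 without normoxia replicate 2.

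Collagen and matrix genes followed, with 9 of 20 tested members called higher and 11 not called, where 2.22% of all genes were called higher. The list median was 0.81. The collagen prolyl hydroxylases P4HA1 and P4HA2 rose by 2.05 ± 0.20 and 1.43 ± 0.21, and the lysyl hydroxylase PLOD2 by 1.40 ± 0.18, while PLOD1 and PLOD3 were not called. P4HA1 measured 49.0 and 51.7 CPM in normoxia against 177 and 241 in hypoxia. The crosslinking oxidases LOX and LOXL2 rose, LOXL2 by 1.64 ± 0.26. COL5A1, a fibrillar collagen, measured 840.2 and 1143 CPM in normoxia against 2157 and 4548 in hypoxia with a log2 fold change of 1.76 ± 0.33 (SE, adjusted p = 0.0409). COL1A1, another, measured 48.2 and 85.0 CPM in normoxia against 132 and 432 in hypoxia with a log2 fold change of 2.08 ± 0.48 (SE, adjusted p = 0.0824), and its adjusted p by DESeq2 was 0.167. ITGA5, the fibronectin receptor chain, rose by 1.30. Of the 6 fibroblast markers, LUM passed 0.5 CPM at 73 to 97 counts, PDGFRB had 10 to 30, THY1 8 to 22, and COL1A2, COL3A1 and DCN 0 to 5 counts in every library. Leaving out hypoxia replicate 1 gave 15 calls of 20, and leaving out hypoxia replicate 2 gave 9, with COL1A1 at 0.99 and COL5A1 at 1.12. COL1A1 was 2.69 without hypoxia replicate 1.

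Of 16 JmjC demethylases, oxygen-using enzymes that remove histone methyl marks, 2 rose and 14 were not called, where 2.22% of all genes rose. KDM3A measured 63.5 and 63.9 CPM in normoxia against 108 and 186 in hypoxia with a log2 fold change of 1.21 ± 0.25 (SE, adjusted p = 0.0583), and KDM4B measured 22.7 and 23.9 CPM in normoxia against 43.8 and 54.9 in hypoxia with a log2 fold change of 1.08 ± 0.20 (SE, adjusted p = 0.0416). The median of the family was 0.18. Without hypoxia replicate 2 the adjusted p of KDM3A was 0.1502 and its call was lost, while KDM4B kept its call with 0.0896. The family held 4 calls without hypoxia replicate 1 and 3 without normoxia replicate 2.

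Of 10 tested lipid droplet genes 2 were called higher, of 21 genes of folding in the endoplasmic reticulum 1, and of 19 epithelial and mesenchymal genes 2, where 2.22% of all genes were. HILPDA, which slows triglyceride breakdown in lipid droplets, measured 12.1 and 8.84 CPM in normoxia against 28.7 and 99.8 in hypoxia with a log2 fold change of 2.61 ± 0.49 (SE, adjusted p = 0.0410). Leaving out hypoxia replicate 2 gave 1.45 for HILPDA, and leaving out hypoxia replicate 1 gave 3.24. PLIN2, the droplet coat protein, measured 122 and 94.1 CPM in normoxia against 300.4 and 394 in hypoxia with a log2 fold change of 1.68 ± 0.21 (SE, adjusted p = 0.00751). ERO1L, the oxidase that drives disulfide formation in the endoplasmic reticulum, measured 119.7 and 112 CPM in normoxia against 229.8 and 293 in hypoxia with a log2 fold change of 1.17 ± 0.19 (SE, adjusted p = 0.0223), the single call among the folding genes. The chaperones HSP90B1 and PDIA3 came next by p and were not called, at 0.48 ± 0.17 (adjusted p = 0.224) and 0.45 ± 0.18 (adjusted p = 0.258). VIM, the mesenchymal filament vimentin, and TGFB1 rose by 0.90 ± 0.20 and 1.04 ± 0.26, with adjusted p of 0.0794 and 0.0990. CDH1, the epithelial cadherin, was not called at 0.54, nor was SNAI1, a repressor of CDH1, at 1.48 with an adjusted p of 0.158. Neither the call of VIM nor that of TGFB1 held without hypoxia replicate 2 (adjusted p of 0.258 for VIM and 0.564 for TGFB1) or without normoxia replicate 2 (0.217 and 0.123). TGFB1 also missed without normoxia replicate 1, with 0.1002, and without hypoxia replicate 1 the list held 4 higher and 1 lower.

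IRS2, an insulin receptor substrate, was the 1 call among 25 growth factor genes, where 2.22% of all genes were called higher. It measured 17.5 and 22.2 CPM in normoxia against 32.5 and 58.4 in hypoxia with a log2 fold change of 1.19 ± 0.29 (SE, adjusted p = 0.0929). Of the other ligands and feedback genes, the EGFR ligand EREG measured 226 and 257 CPM in normoxia against 145 and 63.5 in hypoxia and the AP-1 subunit FOSL1 measured 155 and 125 CPM in normoxia against 92.1 and 74.9 in hypoxia, with adjusted p of 0.123 and 0.112. INSIG2, which restrains sterol synthesis, was the 1 call among 23 sterol and fatty acid genes, again beside 2.22% of all genes. It measured 12.9 and 17.3 CPM in normoxia against 28.1 and 37.7 in hypoxia with a log2 fold change of 1.12 ± 0.24 (SE, adjusted p = 0.0694). Its relative INSIG1 gave a log2 fold change of 0.82 ± 0.31 (SE, adjusted p = 0.236) and SC5D, a late sterol enzyme, gave a log2 fold change of 0.51 ± 0.20 (SE, adjusted p = 0.245), neither of which passed. The calls of IRS2 and INSIG2 were lost without hypoxia replicate 2, with adjusted p of 0.441 and 0.174, and without normoxia replicate 1, with 0.125 and 0.117. The growth factor list moved with the libraries, from 0 calls without hypoxia replicate 2 to 6 higher and 3 lower without hypoxia replicate 1, and to 5 higher and 1 lower without normoxia replicate 2.

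Of 19 tested long noncoding RNAs, 2 rose and 2 fell, where 2.22% and 0.456% of all genes did. MIR210HG, the host transcript of the hypoxia-linked microRNA miR-210, measured 8.26 and 3.10 CPM in normoxia against 26.5 and 56.7 in hypoxia with a log2 fold change of 2.87 ± 0.48 (SE, adjusted p = 0.0251), and 3.74 without normoxia replicate 1 and 2.22 without hypoxia replicate 2. H19, an imprinted transcript, measured 3.32 and 3.48 CPM in normoxia against 10.3 and 33.0 in hypoxia with a log2 fold change of 2.67 ± 0.48 (SE, adjusted p = 0.0337), and 1.59 without hypoxia replicate 2 and 3.27 without hypoxia replicate 1. The small nucleolar RNA hosts SNHG15 and SNHG1 measured 29.8 and 43.2 CPM in normoxia against 19.6 and 13.6 in hypoxia and 227 and 354 CPM in normoxia against 157 and 132 in hypoxia, with log2 fold changes of -1.13 ± 0.26 and -1.004 ± 0.23 and adjusted p near 0.0833. Neither host kept its call without normoxia replicate 2, where the adjusted p were 0.146 and 0.196, and SNHG15 also lost it without hypoxia replicate 2, with 0.153. Without hypoxia replicate 1 or normoxia replicate 1, 4 were called lower.

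The genes of amino acid stress had the lowest median of the lists, -1.09. Of the 24 genes, 3 were called lower and 21 were not called, where 0.456% of all genes were called lower. PSAT1, of serine synthesis, measured 129 and 294 CPM in normoxia replicates 1 and 2 and 81.9 and 47.9 CPM in hypoxia replicates 1 and 2. SLC7A11, the cystine importer, measured 463 and 809.5 CPM in normoxia against 304 and 154 in hypoxia. Both hypoxia libraries lay under both normoxia libraries, by -1.70 ± 0.37 and -1.48 ± 0.34. Without normoxia replicate 2 the values were -0.99 for PSAT1 and -1.02 for SLC7A11. Normoxia replicate 2 stood high across the list: 23 of 24 members were lower in normoxia replicate 1, and the median ratio of replicate 1 to replicate 2 was 0.43, while the hypoxia libraries gave 1.03. ASNS, asparagine synthetase, measured 45.6 and 219.7 CPM in normoxia against 31.8 and 34.5 in hypoxia and was not called, with an adjusted p of 0.133. Without normoxia replicate 2 the median was -0.22 with 2 members lower, and without normoxia replicate 1 it was -1.68 with 19 lower. Leaving out hypoxia replicate 1 or 2 gave 18 or 14 lower. DESeq2 called 9 members lower, and limma on log2(RPKM + 0.1) called 0 of 24 in either direction.

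NRF2 targets, which guard against oxidative stress, gave 5 of 25 called lower, where 0.456% of all genes were, and a median of -0.28. Beside OSGIN1 and SLC7A11 these were SRXN1, which repairs peroxiredoxins, at 263 and 252 CPM in normoxia against 146 and 118 in hypoxia, AKR1B10, an aldo-keto reductase, at 1184 and 805 CPM in normoxia against 579 and 406 in hypoxia, and the exporter ABCC2. Their log2 fold changes were -0.96 ± 0.18, -1.01 ± 0.25 and -0.89 ± 0.20. That of SLC7A11, given above, was -1.02 without normoxia replicate 2. NQO1, a quinone reductase widely used as a marker of this program, was not called, at -0.19 with an adjusted p of 0.638, and HMOX1, which is known to answer other stimuli too, was not called at 0.68 with 0.124. Without hypoxia replicate 2, SRXN1 and AKR1B10 had adjusted p of 0.124 and 0.177 and 2 calls remained, against 11 lower without hypoxia replicate 1 and 3 without normoxia replicate 1.

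Of 23 p53 targets, GDF15, a stress-induced secreted factor, was called lower, where 0.456% of all genes were. It measured 26.7 and 21.2 CPM in normoxia against 10.7 and 5.91 in hypoxia with a log2 fold change of -1.53 ± 0.30 (SE, adjusted p = 0.0517). CDKN1A, the cell cycle inhibitor p21, measured 236 and 142 CPM in normoxia against 168 and 177 in hypoxia, with a log2 fold change of -0.13, and AEN and GADD45A gave a log2 fold change of -0.72 ± 0.28 (SE, adjusted p = 0.248) and a log2 fold change of -0.89 ± 0.36 (SE, adjusted p = 0.260). In this list normoxia replicate 1 stood above replicate 2 for 20 of 23 members, with a median ratio of replicate 1 to replicate 2 of 1.64 against 1.08 between the hypoxia libraries. The list median of -0.08 was 0.28 without normoxia replicate 1, with 3 called higher and 2 lower, and -0.29 without normoxia replicate 2, with 2 lower, and 4 were called lower without hypoxia replicate 1.

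Ribosome biogenesis and MYC-linked genes had 4 of 32 called lower and 28 not called, where 0.456% of all genes were called lower. The list median was -0.65. MAT2A, which makes the methyl donor S-adenosylmethionine, measured 871 and 1278 CPM in normoxia against 477 and 424 in hypoxia with a log2 fold change of -1.25 ± 0.22 (SE, adjusted p = 0.0297). DDX21, a nucleolar helicase, measured 360.1 and 374 CPM in normoxia against 234 and 175 in hypoxia with a log2 fold change of -0.85 ± 0.19 (SE, adjusted p = 0.0824). RRP9, of the small nucleolar complex that processes ribosomal RNA, and TRMT61A, a tRNA methyltransferase, gave -1.05 ± 0.25 and -1.12 ± 0.27. All 32 members were lower in hypoxia replicate 2 than in replicate 1, with a median ratio of replicate 1 to replicate 2 of 1.55, and 28 were also lower in normoxia replicate 2, with a median ratio of 1.16. Leaving out hypoxia replicate 1 gave a median of -1.08 with 25 called lower, and leaving out hypoxia replicate 2 gave -0.34 with 1. Without normoxia replicate 2 the count was 10. MYC itself was not called, at -0.12.

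By their medians, proliferation genes differed more between same-condition libraries than between conditions. Of 32 DNA replication genes and 24 mitosis genes, edgeR called 0 in either direction, with medians of -0.34 and -0.16. At an unadjusted p under 0.05 there were 3 replication genes lower, and no mitosis gene passed in either direction. Of all tested genes, 6.83% were lower at that threshold. DESeq2 called 1 replication gene lower, and limma on log2(RPKM + 0.1) called 0 in both lists. Without hypoxia replicate 1, 17 replication and 3 mitosis genes were called lower, with medians of -0.75 and -0.39, and without hypoxia replicate 2 none was, with medians of -0.01 and 0.05. All 24 mitosis genes were lower in replicate 2 than in replicate 1 in both conditions, and so were 31 of the 32 replication genes in each condition, with median ratios of replicate 1 to replicate 2 between 1.29 and 1.61. The smallest p in these lists belonged to E2F2, at 17.0 and 10.6 CPM in normoxia against 9.24 and 4.59 in hypoxia with an adjusted p of 0.229, CDC45, at 45.6 and 35.8 CPM in normoxia against 31.4 and 23.1 in hypoxia with 0.255, AURKB, at 136 and 95.9 CPM in normoxia against 99.1 and 73.5 in hypoxia with 0.379, and PLK1, at 174 and 99.4 CPM in normoxia against 119.8 and 87.0 in hypoxia with 0.493.

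The other 4 lists had no call by edgeR in either direction. At an unadjusted p under 0.05, 17 mTOR and energy genes gave 1 higher and 1 lower, and 15 circadian genes 1 higher. The 20 NF-kB and cytokine genes gave 1 higher and 2 lower, and the 19 interferon-stimulated genes 0. Over all tested genes, 9.75% were higher and 6.83% lower at that threshold. DESeq2 called 1 mTOR gene and 1 cytokine gene, both lower, and limma called 0 in these lists. In the fit without hypoxia replicate 1, 6 cytokine genes were called lower and 2 higher, 1 mTOR gene lower and 1 higher, 2 circadian genes higher and 1 interferon-stimulated gene higher. Each of the other 3 fits gave calls in the cytokine and mTOR lists at most, with 2 and 1 lower without normoxia replicate 1, 1 and 1 lower without hypoxia replicate 2, and 1 mTOR gene higher without normoxia replicate 2. SESN2, a sestrin that restrains mTOR, measured 22.8 and 53.5 CPM in normoxia against 16.4 and 14.3 in hypoxia with a log2 fold change of -1.31 ± 0.35 (SE, adjusted p = 0.121). It passed with adjusted p of 0.000657, 0.000395 and 0.00917 without normoxia replicate 1, hypoxia replicate 1 and hypoxia replicate 2, and gave 0.327 without normoxia replicate 2. FOXO3 gave a log2 fold change of 0.54 ± 0.22 (SE, adjusted p = 0.262). The neutrophil chemokine CXCL2 measured 17.7 and 35.5 CPM in normoxia against 11.5 and 3.48 in hypoxia, with an adjusted p of 0.136. CXCL1, another, measured 22.8 and 21.3 CPM in normoxia against 14.1 and 6.73 in hypoxia, with an adjusted p of 0.163. The log2 fold change of CXCL2 was -1.82, and -2.24 or -1.24 without normoxia replicate 1 or 2. Without hypoxia replicate 1 or 2 it was -2.94 or -1.22. NR1D1 and BHLHE40, repressors of the clock, gave a log2 fold change of 0.97 ± 0.38 (SE, adjusted p = 0.247) and a log2 fold change of 0.77 ± 0.43 (SE, adjusted p = 0.407), and the interferon factors IRF9 and IRF7 gave a log2 fold change of 0.52 ± 0.25 (SE, adjusted p = 0.332) and a log2 fold change of 0.40 ± 0.23 (SE, adjusted p = 0.431). DDIT4, the classical hypoxic brake on mTOR, measured 130.4 and 289 CPM in normoxia against 189 and 627 in hypoxia, so that hypoxia replicate 1 lay below normoxia replicate 2 and the adjusted p was 0.377.

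**Figure D4:**
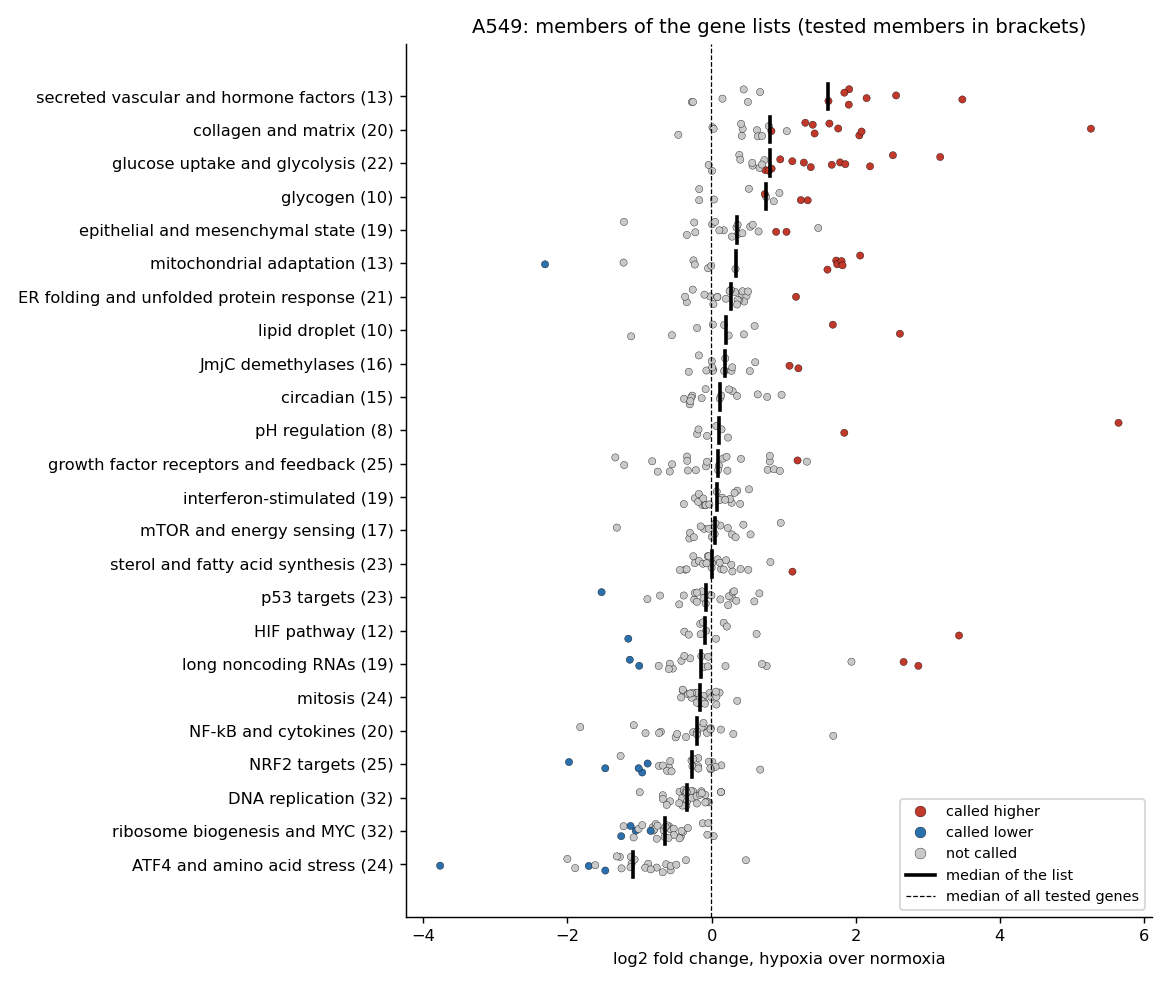
Each row is a gene list and each point a tested member, placed by its log2 fold change of hypoxia over normoxia in A549, with called members coloured, a thick bar at the list median and a dashed line at the median of all tested genes, -0.01. The medians run from -1.09 for amino acid stress to 1.62 for secreted factors.

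The study defined acutely transactivated genes in another line, HCT116, from nascent transcription after a short exposure, and assigned HIF1A peaks in A549 to them. That list was used here to ask how such genes stood in A549 after 24 h. Of 661 tested genes of the list, 89 were called higher and 1 lower, 13.5% and 0.151% against 2.22% and 0.456% of all genes, with a median log2 fold change of 0.39. Genes with a proximal peak in A549 were called higher in 44 of 198 cases and had a median of 0.52. Genes with a distal peak only were called in 27 of 139 with a median of 0.54, and genes without a peak in 18 of 324 with a median of 0.30. Without hypoxia replicate 1 these counts were 83, 62 and 75, without hypoxia replicate 2 they were 36, 16 and 12, and without normoxia replicate 2 the last was 33. The single gene called lower had a proximal peak. Promoter windows were found for 169 of the 198 proximal-peak genes, and 82.8% of these windows held a core. The share was 70.3% over all acute genes of the list and 64.3% over the distal-only genes. The 48.4% of all windows is not a like baseline, since it covers every listed start and genes not tested here. Only 77.9% of all tested genes and 78.7% of acute genes without a peak had a window. Both are under the 80% required for a share, so none is given.

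To see where A549 differed from the other lines, the hypoxia responses were compared in 1 fit of all 12 libraries. The response in A549 differed from that in H460 for 5607 of 15595 genes (36%) at an adjusted p under 0.1, and from that in RKO for 2270 (14.6%). H460 grew in RPMI, so line and medium cannot be told apart in the first comparison. Of the differing genes, A549 had the higher log2 fold change in 52.2% against H460 and 37.97% against RKO, but in 72.5% and 20.2% when only library size was scaled, which moved the median difference from 0.05 to 0.31 against H460 and from -0.05 to -0.18 against RKO. Differences from both lines in one direction held for 331 genes with A549 higher (2.12%) and 428 with A549 lower (2.74%), and both comparisons share the A549 libraries. The same A549 libraries chose the 316 genes called higher and entered these tests, so their split is only a description. Of the 316 genes, 83 rose more than in H460 and 79 less, where 36% of all genes differed. Against RKO, 58 rose more and 16 less, where 14.6% of all genes differed. These counts moved with the libraries: without hypoxia replicate 1, 401 genes differed from both lines in one direction, and without normoxia replicate 1, hypoxia replicate 2 or normoxia replicate 2 it was 1194, 1114 or 494.

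Some of the best known hypoxia genes did not pass this test of a difference from either line. CA9 gave a difference of -1.15 ± 0.58 (adjusted p = 0.160) from H460 and a difference of 1.15 ± 0.57 (adjusted p = 0.226) from RKO, NDRG1 gave -1.35 ± 0.65 and 0.40 ± 0.64, VEGFA gave 0.14 ± 0.42 and 0.39 ± 0.42, and HK2 gave -0.24 ± 0.35 and 0.02 ± 0.33. A p that misses the threshold does not show that the lines respond alike.

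The HIF subunits differed between lines. EPAS1 gave -0.06 ± 0.22 in A549, 1.44 ± 0.23 in H460 and 1.35 ± 0.24 in RKO, and the A549 response was lower than both, with a difference of -1.50 ± 0.32 (adjusted p = 0.00394) and a difference of -1.41 ± 0.33 (adjusted p = 0.0196). HIF1A gave -1.14 ± 0.18 in A549, -0.12 ± 0.18 in H460 and -1.69 ± 0.19 in RKO, with A549 lower than H460 at a difference of -1.02 ± 0.25 (adjusted p = 0.00936). The difference from RKO did not pass, at a difference of 0.55 ± 0.25 (adjusted p = 0.2002). ARNT in A549 was lower than in H460, with a difference of -1.52 ± 0.24 (adjusted p = 0.000653), and did not pass against RKO, with a difference of -0.40 ± 0.24 (adjusted p = 0.324).

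PDK4 went down in A549 and up in H460. Its fitted values were -2.30 ± 0.20 in A549, 1.30 ± 0.19 in H460 and 0.23 ± 0.24 in RKO, and both differences passed, at a difference of -3.59 ± 0.28 (adjusted p = 7.04e-06) and a difference of -2.53 ± 0.31 (adjusted p = 0.000528). FOSL2, an AP-1 subunit, and DENND3, a Rab regulator, rose in the other lines and were not called in A549. FOSL2 gave -0.50 ± 0.18, 1.59 ± 0.18 and 2.59 ± 0.20 in A549, H460 and RKO, and DENND3 by -0.10 ± 0.14, 1.23 ± 0.14 and 2.35 ± 0.16. SYTL2, a synaptotagmin-like protein of vesicle traffic, gave 0.49 ± 0.15, 1.90 ± 0.16 and 5.12 ± 0.22. RELL2 fell in A549, at 11.6 and 10.6 CPM in normoxia against 4.23 and 4.94 in hypoxia, and gave 0.66 ± 0.17 and 0.64 ± 0.16 in H460 and RKO.

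In the opposite direction, DAPK1, a death-associated kinase, rose in A549, at 77.2 and 64.4 CPM in normoxia against 211 and 187 in hypoxia. Its fitted values were 1.51 ± 0.15, -1.16 ± 0.37 and 0.08 ± 0.14 in A549, H460 and RKO. TMEM141, the upstream neighbour of CCDC183, rose in A549, at 54.1 and 51.7 CPM in normoxia against 165 and 234 in hypoxia, with fitted values of 1.93 ± 0.18, 0.14 ± 0.18 and 0.43 ± 0.17. MRPS6, a mitochondrial ribosomal protein, gave 0.96 ± 0.17, -1.01 ± 0.18 and -0.63 ± 0.17, and its call in A549 was lost without hypoxia replicate 2, with an adjusted p of 0.274, and without normoxia replicate 2, with 0.143. CMSS1 and the chromatin protein HMGB1 were not called in A549, where their values were -0.33 ± 0.15 and 0.08 ± 0.14, but fell in H460, with -1.50 ± 0.16 and -1.28 ± 0.15, and in RKO, with -1.72 ± 0.16 and -1.21 ± 0.15.

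**Figure D5:**
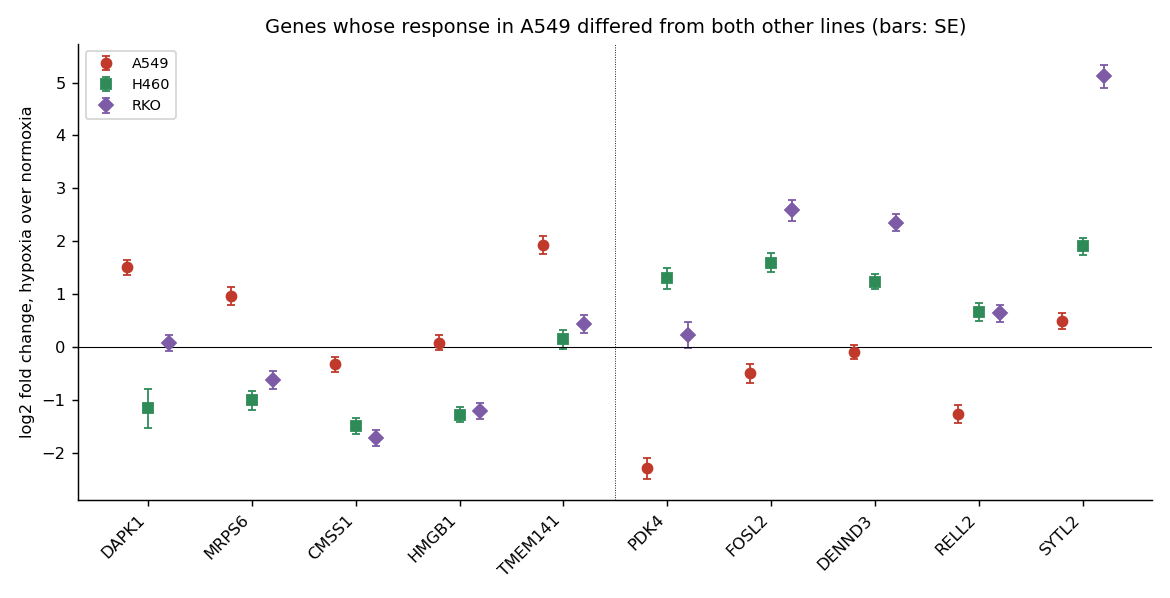
Points give the log2 fold change of hypoxia over normoxia in A549 (red circles), H460 (green squares) and RKO (purple diamonds) from the fit of 12 libraries, with bars for the SE, for the 5 genes higher and the 5 lower in A549 than in both other lines with the smallest adjusted p. The A549 points stand above the other 2 lines for the first 5 genes and below them for the last 5.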

How the data were processed

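Strand-specific poly(A)+ RNA was sequenced single-end from A549, H460 and RKO cells in normoxia and hypoxia, 2 libraries per group. Per the study's methods and the submitters' processing notes, the authors trimmed low-quality 3' ends, aligned to GRCh37/hg19 with TopHat2 2.0.13 and Bowtie2 2.2.3.0, removed poorly mapped reads with SAMtools (the notes name 1.3.1 and the methods another version), marked duplicates with Picard 1.129 and counted exon reads per gene, using strand, with HTSeq 0.6.1 and the UCSC hg19 annotation. The deposited counts are raw whole reads per gene, without pooling of replicates. The deposited RPKM values are the authors' own, and how they were computed is not given in the sources used here. Intersection-nonempty counting can assign reads of overlapping or near-identical genes unevenly.

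From the counts, A549 genes over 0.5 CPM in at least 2 of 4 libraries were tested with edgeR 4.0.16 (quasi-likelihood F test, TMM scaling, R 4.3.3) for hypoxia against normoxia, and called at a Benjamini-Hochberg adjusted p under 0.1 and a fold change over 1.5. The SE is the log2 fold change divided by the square root of F. CPM values are TMM-scaled, except that those of cell type markers are per unscaled library total, and levels of different genes were compared on the deposited RPKM. Responses were compared between lines by interaction contrasts in 1 fit of 12 libraries, over 15595 genes. Library totals were 35724285 to 41757584 counts in A549, and replicates differed by far more than counting error (chi-square per degree of freedom 75.9 in normoxia and 72.1 in hypoxia), so that the replicate spread, with a biological coefficient of variation of 18.9%, sets the precision. With 2 libraries a condition, exact permutation cannot reach a p under 0.05 for a single gene, and all p-values come from these fits. Scripts were tested on simulated data.

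Named genes were HIF1A, EPAS1, ARNT, CA9, NDRG1 and VEGFA, the 8 called genes with the highest and 8 with the lowest log2 fold change among those with no overlap and a mean count of at least 100, the 4 called members with the largest change in each of 24 lists or, where fewer than 2 were called, the 2 with the smallest p, and the 5 genes higher and 5 lower in A549 than in both other lines. Some items are not reported here. Other list members named were picked after their values were seen. The members, lists and tests were chosen with earlier results of these data known, and lists are described by counts and medians without a set test. Of 825 acutely transactivated genes in the study's list, 774 matched the count table by symbol. Alternatives were RLE and library-size scaling, other filters and thresholds, DESeq2 1.42.0, limma 3.58.1 on log2 RPKM plus 0.1 or 1, a joint fit, a replicate block and leaving out each library. Tables and plots used Python 3.11.15, pandas 2.3.3, scipy 1.17.1 and matplotlib 3.10.9.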

Additional observations from a re-analysis of the deposited data

Results flagged for a closer look

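The hypoxia response of A549 was set against that of H460 and of RKO by a test of the difference itself, in edgeR's quasi-likelihood fit of all 12 libraries, and these results passed it at an adjusted p under 0.1. Across genes, 5607 differed from H460 and 2270 from RKO. Both comparisons use the same A549 libraries, and H460 also differs in its medium. For each named gene the value is the log2 fold change in A549 minus that in the other line, for the line with the smaller adjusted p. For some genes the difference from the line not shown also passed, with the opposite sign. From RKO these were PPFIA4 (3.85), BNIP3 (2.57), PYGL (1.09), VIM (0.80) and E2F2 (-1.11). From H460 they were CYP4F3 (3.01) and FGF11 (-1.12). The A549 response of these genes lay between those of H460 and RKO.

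Against H460, the response was higher in A549 for CCDC183 (2.01), COL1A1 (1.58), AKR1B10 (1.67), SRXN1 (1.00), RRP9 (1.51), E2F2 (2.57), CDC45 (2.27), TGFB1 (1.19), DAPK1 (2.67), MRPS6 (1.97), CMSS1 (1.17), HMGB1 (1.36), TMEM141 (1.78). It was lower in A549 for HIF1A (-1.02), EPAS1 (-1.50), ARNT (-1.52), PPFIA4 (-2.76), PDK4 (-3.59), ENO2 (-2.93), PGK1 (-0.69), GBE1 (-0.68), PYGL (-1.49), PGM1 (-0.64), MXI1 (-1.25), BNIP3L (-2.30), BNIP3 (-1.43), KDM3A (-1.64), KDM4B (-0.80), FOXO3 (-1.39), AEN (-0.87), INSIG2 (-2.46), INSIG1 (-0.91), PLIN2 (-2.28), NR1D1 (-2.30), ERO1L (-1.34), HSP90B1 (-0.60), VIM (-1.17), FOSL1 (-1.52), EREG (-3.22), RELL2 (-1.93). Metabolic genes named in the report were among the lower ones. ENO2, PGK1, GBE1, PYGL, PGM1, BNIP3 and BNIP3L all rose in A549 and had a smaller log2 fold change there than in H460. The differences of ALDOC (-0.52), HK2 (-0.24), CA9 (-1.15) and CA12 (-0.05) did not pass, and 36% of all genes differed from H460.

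Against RKO, the response was higher in A549 for LOX (5.13), MT1X (2.55), ANGPTL4 (2.22), EGLN3 (3.61), CA12 (0.99), FGF11 (1.81), COL5A1 (1.79), TRMT61A (1.03). These held LOX and COL5A1 of the matrix list. It was lower in A549 for OSGIN1 (-4.08), CYP4F3 (-5.501), SESN2 (-2.15), PSAT1 (-2.08), GDF15 (-3.02), GADD45A (-1.95), BHLHE40 (-1.53), IRF7 (-0.91), FOSL2 (-3.08), DENND3 (-2.45), SYTL2 (-4.63). The stress genes OSGIN1, GDF15 and PSAT1 were among these. POM121L10P against both lines and SEMA5B against RKO are left out, since the fit gave no usable error there.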

How the results depend on the processing

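Every named gene called in A549 kept its direction in the alternatives run here, and over the named genes 977 values kept their side of the threshold, 55 passed it newly, 112 no longer passed and 9 changed sign. Those 9 belonged to genes that were not called: with 1 library left out, the log2 fold change ran from -0.45 to 0.21 for EPAS1 (0.052 without normoxia replicate 2), from -0.014 to 0.32 for ARNT, from -0.75 to 0.058 for PLK1, from -0.16 to 1.32 for BHLHE40 and down to -0.10 for HMGB1, which also gave -0.020 with library-size scaling and -0.030 with limma at either pseudocount. Library-size scaling ended 20 calls of named genes and limma 26 or 27, VEGFA among them in each, and the cause was not tested.

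The counts of genes called higher and lower, 316 and 65, became 151 and 41 with library-size scaling, 587 and 213 with no filter, 608 and 263 with DESeq2, 144 and 21 at an adjusted p under 0.05, 131 and 49 with limma at a pseudocount of 0.1, 106 and 38 at 1, and 957 and 440 in the joint fit. Leaving out 1 library gave 196 to 1156 higher and 72 to 791 lower, and 4320 to 5799 genes differing from H460, 1564 to 2786 from RKO and 401 to 1194 from both in 1 direction, against 759. Without a test, ACGTG alone was found in 60.4% of the promoter windows of acute genes with a proximal peak. The share was 39.7% over all acute genes of the list and 30.4% over the distal-only genes. It was 21.4% over all promoter windows, which are not a like baseline, as stated above.

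A549 replicate numbers are shared between conditions. Deviations of same-numbered libraries correlated with r = 0.343 across genes in A549, 0.115 in H460 and 0.339 in RKO, and with 2 pairs per line the number was treated as a name only. With the replicate block, 1189 genes were called higher and 723 lower, among them all 316 and 65 called without it, 7197 differed from H460, 4200 from RKO and 1626 from both in 1 direction. Under the block the lower calls were 21 of 32 in the ribosome biogenesis list, 17 of 24 in the amino acid stress list, 11 of 25 among NRF2 targets and 4 of 32 among DNA replication genes. The median SE of 0.22 on the log2 scale limits which small changes could pass.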

Other observations

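Several called genes stood outside the lists and were chosen here after their values were seen. Among those called higher, CP, the copper-carrying ferroxidase ceruloplasmin, measured 18.3 and 16.9 CPM in normoxia against 80.8 and 132 in hypoxia, with a log2 fold change of 2.59 ± 0.25 (SE, adjusted p = 0.00441). APOL1, an apolipoprotein, measured 105 and 64.1 CPM in normoxia against 421 and 449 in hypoxia, with a log2 fold change of 2.37 ± 0.25 (SE, adjusted p = 0.00441). LRP1, a large endocytic receptor, measured 84.7 and 70.3 CPM in normoxia against 257 and 552 in hypoxia, and ITPR1, a calcium channel of the endoplasmic reticulum, measured 13.5 and 12.9 CPM in normoxia against 52.4 and 71.9 in hypoxia. Their log2 fold changes were 2.38 ± 0.33 and 2.24 ± 0.22. AK4, a mitochondrial adenylate kinase, measured 22.2 and 13.1 CPM in normoxia against 83.4 and 78.1 in hypoxia, with a log2 fold change of 2.19 ± 0.26 (SE, adjusted p = 0.00603). The homeobox genes HOXD9 and HOXD10 were called from low levels, with 2.45 ± 0.46 and 2.16 ± 0.41.

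Among those called lower, CPS1, the first enzyme of the urea cycle, measured 334 and 449 CPM in normoxia against 177 and 143 in hypoxia, with a log2 fold change of -1.29 ± 0.21 (SE, adjusted p = 0.0235). ALDH3A1, an aldehyde dehydrogenase, measured 598 and 247 CPM in normoxia against 173 and 89.7 in hypoxia, with a log2 fold change of -1.68 ± 0.41 (SE, adjusted p = 0.0976), and its normoxia libraries lay further apart than its conditions' nearest values. NRG1, a ligand of ERBB receptors, measured 212 and 242 CPM in normoxia against 122 and 86.3 in hypoxia, with a log2 fold change of -1.12 ± 0.21 (SE, adjusted p = 0.0409). In the Wnt pathway, RSPO3, a secreted enhancer, measured 88.2 and 91.3 CPM in normoxia against 37.2 and 24.0 in hypoxia, and AXIN2, a feedback target, measured 4.79 and 2.68 CPM in normoxia against 1.08 and 0.585 in hypoxia, with log2 fold changes of -1.55 ± 0.23 and -2.15 ± 0.45. The transfer RNA synthetases YARS and MARS measured 130.4 and 211 CPM in normoxia against 86.9 and 71.2 in hypoxia and 199 and 403 CPM in normoxia against 140.3 and 99.7 in hypoxia, and for both the second normoxia library was the highest of the 4.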
